A study of Sus scrofa with 16 samples.

Results

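Ileal enteroendocrine cells, the hormone-secreting cells scattered through the epithelium of the last stretch of the small intestine, were taken from single-cell RNA data as cells without a UMI (a counted RNA molecule) of PTPRC, the leukocyte surface phosphatase CD45, and with at least 3 UMIs of CHGA, which encodes the granule protein chromogranin A. The gate gave 76 cells of 5357 kept ileal cells and of 7061 kept cells in the whole data set. Of the 76, 48 came from ileum with Peyer's patches (IPP, 3273 kept cells) and 28 from ileum without them (NoPP, 2084 kept cells). Cells were kept from 1000 UMIs and 500 detected genes upwards, with no more than 25% of UMIs from the 13 mitochondrial genes. The gate used CHGA, and the L-type and PENK-type classes below used GCG, PYY, NTS and PENK, so the levels of these 5 genes are given as a description.

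The tissue came from mixed-breed female pigs that were 7.5 weeks old, with no treatment named. Epithelial cells were released with dithiothreitol and EDTA, enriched on Percoll and made into droplet libraries that read the 3′ ends of transcripts. The same gate gave 37 cells in the duodenum just past the pylorus (DUOD) and 19 in the jejunum (JEJ), which serve for comparison. The labels name 4 samples per region, but each region was deposited as 1 matrix with no map from cells to samples, so each region is 1 sample and no p-value is given. Intervals are 95% intervals that cover counting error only, and not differences between animals.

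Enteroendocrine cells store peptide hormones in dense granules with chromogranins and secretogranins, cut the prohormones with convertases such as PCSK1, and release them when luminal nutrients, bile acids or neural signals arrive. L cells, which are most frequent in the distal gut, make proglucagon (GCG), the source of GLP-1, together with peptide YY (PYY), and many also make neurotensin (NTS). D cells make somatostatin (SST), which restrains other endocrine cells, and enterochromaffin cells make serotonin under factors such as LMX1A. PENK encodes proenkephalin, the precursor of opioid peptides.

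The label was checked on 6 markers of endocrine cells that the gate had not used: CHGB, SCG2, SCG5 (granule proteins), PCSK1, NEUROD1 and RFX6 (endocrine transcription factors). In IPP, 28 of the 48 gated cells had no UMI of any of the 6 (58.3%, exact binomial interval 43.2 to 72.4%), against 1 of 28 in NoPP, 0 of 37 in DUOD (exact upper bound 9.49%) and 0 of 19 in JEJ (17.6%). A UMI of 2 or more of the 6 was found in 20 IPP, 27 NoPP, 37 DUOD and 18 JEJ cells. After thinning to 1500 UMIs per cell, these became 17 of 48, 16 of 28, 23 of 37 and 15 of 19. The data therefore go against the label for a large part of the IPP cells, and the set is called the CHGA-gated cells here.

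The 28 IPP cells carried genes of absorptive enterocytes. Each held between 10 and 190 UMIs of FABP2 (median 64), the intestinal fatty acid-binding protein. A UMI of SLC10A2, the ileal bile acid uptake carrier, was found in 27 of them and one of FABP6, the ileal bile acid-binding protein, in 23. Their CHGA counts ran from 3 to 25 with a median of 5. Their mitochondrial share had a median of 19.3% and ran from 12.4 to 24.7%, against a median of 6.96% in the other 20 IPP cells. Enterocyte markers took a median of 2.03% of their UMIs, against 0.445% in the other 20, and summed to 23408 CPM (counts scaled to 1e6 summed UMIs) with none of the 10 markers at 0. Of 13 enteroendocrine markers, 8 were at 0 in these 28 cells: PENK, CHGB, SCG2, SCG5, PCSK1, NEUROD1, RFX6 and CCK.

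CHGA at 3 or more was found in 28 of 154 IPP cells (18.2%) that lacked PTPRC, held at least 5 FABP2 UMIs and had under 2 of the 6 markers. The same kind of cell reached that CHGA count in 0 of 34 in NoPP (exact upper bound 10.3%), 0 of 113 in DUOD (3.21%) and 0 of 201 in JEJ (1.82%). Among PTPRC-bearing cells, 41 of 2859 in IPP (1.43%) and 33 of 1876 in NoPP (1.76%) held a CHGA UMI, and 4 (0.140%) and 8 (0.426%) reached 3. These cells were shallower, with a median of 4398 UMIs in IPP against 16045 in the 28 cells. Barcodes with under 100 UMIs held CHGA at 50.7 CPM in IPP and 120 CPM in NoPP. Whether the CHGA UMIs of the 28 cells came from those cells was not tested.

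The gate also missed cells with high L-cell hormones. Among cells without PTPRC, 13 in IPP and 8 in NoPP held at least 30 UMIs of GCG, PYY and NTS but under 3 of CHGA. In IPP, 11 of the 13 had no CHGA UMI and 12 had 2 or more of the 6 markers; their median PYY count was 2308 and their highest 10187. In NoPP, 4 of the 8 had no CHGA UMI and 7 had 2 or more markers, with PYY between 198 and 4261. GCG reached 10 UMIs in 8 of the 13 and in 7 of the 8, up to 1145 and 2127. None of the 21 held a PENK UMI. Results are therefore also given for the 47 gated cells with 2 or more of the 6 markers, and for a wider set of 68 cells (33 IPP, 35 NoPP) that lacked PTPRC and had 2 or more of the 6 markers whatever their CHGA, called the six-marker set. Both rules were chosen after the data were seen.

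**Figure D1:**
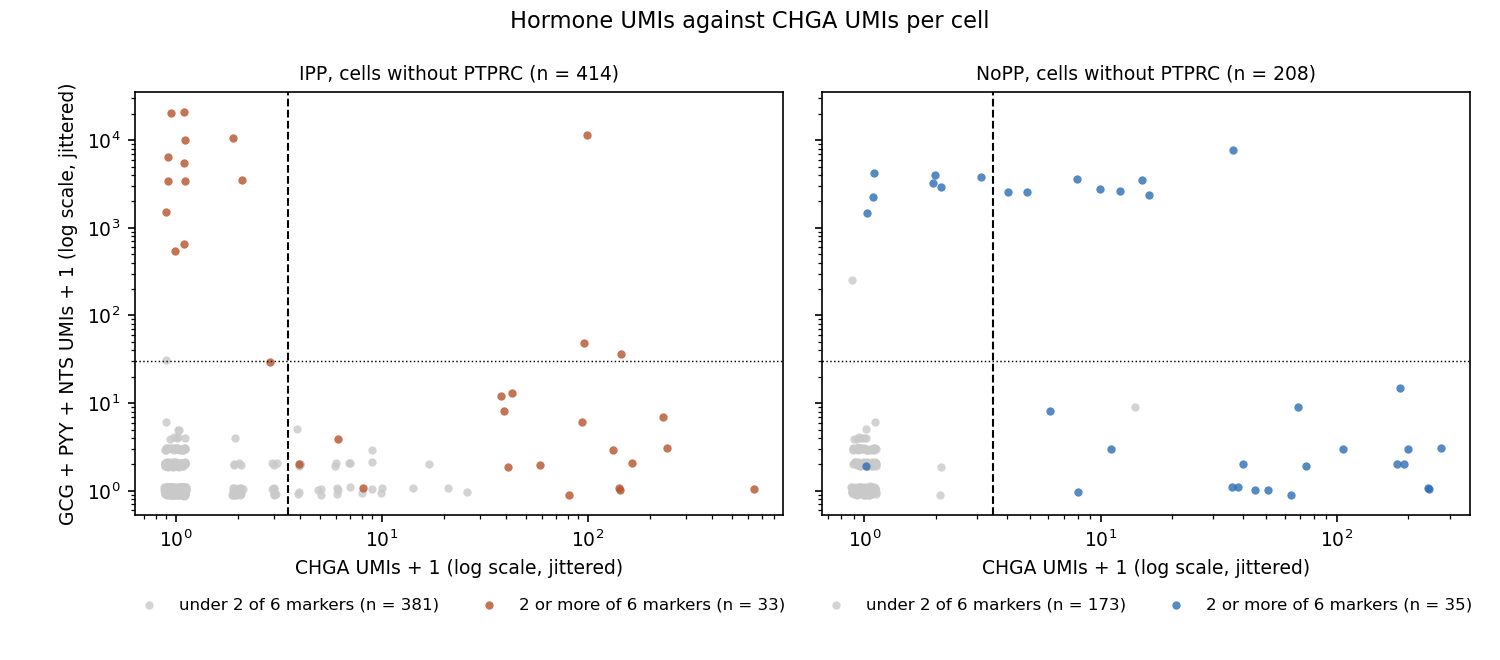
CHGA UMIs plus 1 (horizontal, log scale) against the summed UMIs of GCG, PYY and NTS plus 1 (vertical, log scale) in each ileal cell without PTPRC, for IPP (414 cells) and NoPP (208 cells), coloured by whether the cell had 2 or more of the 6 endocrine markers. Cells above the dotted line of 30 hormone UMIs but left of the dashed gate of 3 CHGA UMIs are the 13 IPP and 8 NoPP cells that the gate missed, and the IPP panel shows many cells just right of the gate with under 2 markers.

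The counts just inside and outside the threshold differed between the 2 ileal libraries. With CHGA at 2 UMIs, IPP had 10 cells of which 1 had 2 or more of the 6 markers, and with CHGA at 3 it had 8 cells of which 1 did. NoPP had 1 cell at 2 UMIs and 1 cell at 3, and each had 2 or more markers. One NoPP cell carried all 561 GIP UMIs found in NoPP. GIP encodes an incretin of the upper gut, and the barcode of this cell (1610 UMIs) was also a gated DUOD cell with 15755 UMIs, 8607 of them GIP. That is just under the 10-fold limit by which 121 other NoPP barcodes were left out as shared with DUOD. No other gated ileal cell was a kept cell of another library. In IPP, GIP had 0 UMIs.

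The 76 cells were sorted by 10 UMIs. L-type cells held at least 10 UMIs of GCG, PYY and NTS together and under 10 of PENK. They numbered 13, with 4 in IPP and 9 in NoPP (17.1%, interval 9.43 to 27.5%). PENK-type cells, with at least 10 PENK UMIs and under 10 of the L hormones, numbered 12, with 5 in IPP and 7 in NoPP (15.8%, 8.43 to 26.0%). One IPP cell met both rules, with 48 PYY and 46 PENK UMIs. The other 50 met neither: the 28 IPP cells with enterocyte genes, 9 NoPP cells with at least 1000 SST UMIs, and 13 others (10 IPP, 3 NoPP). Near the PENK limit, 5 IPP cells and 1 NoPP cell held 5 to 9 PENK UMIs and 2 and 2 held 10 to 19. Near the L limit, 3 and 3 held 5 to 9, and 2 and 1 held 10 to 19. Among cells with PTPRC, 9 of 2859 in IPP (0.315%) and 9 of 1876 in NoPP (0.480%) reached 10 L-hormone UMIs, and 1 and 2 reached 10 PENK UMIs.

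**Figure D2:**
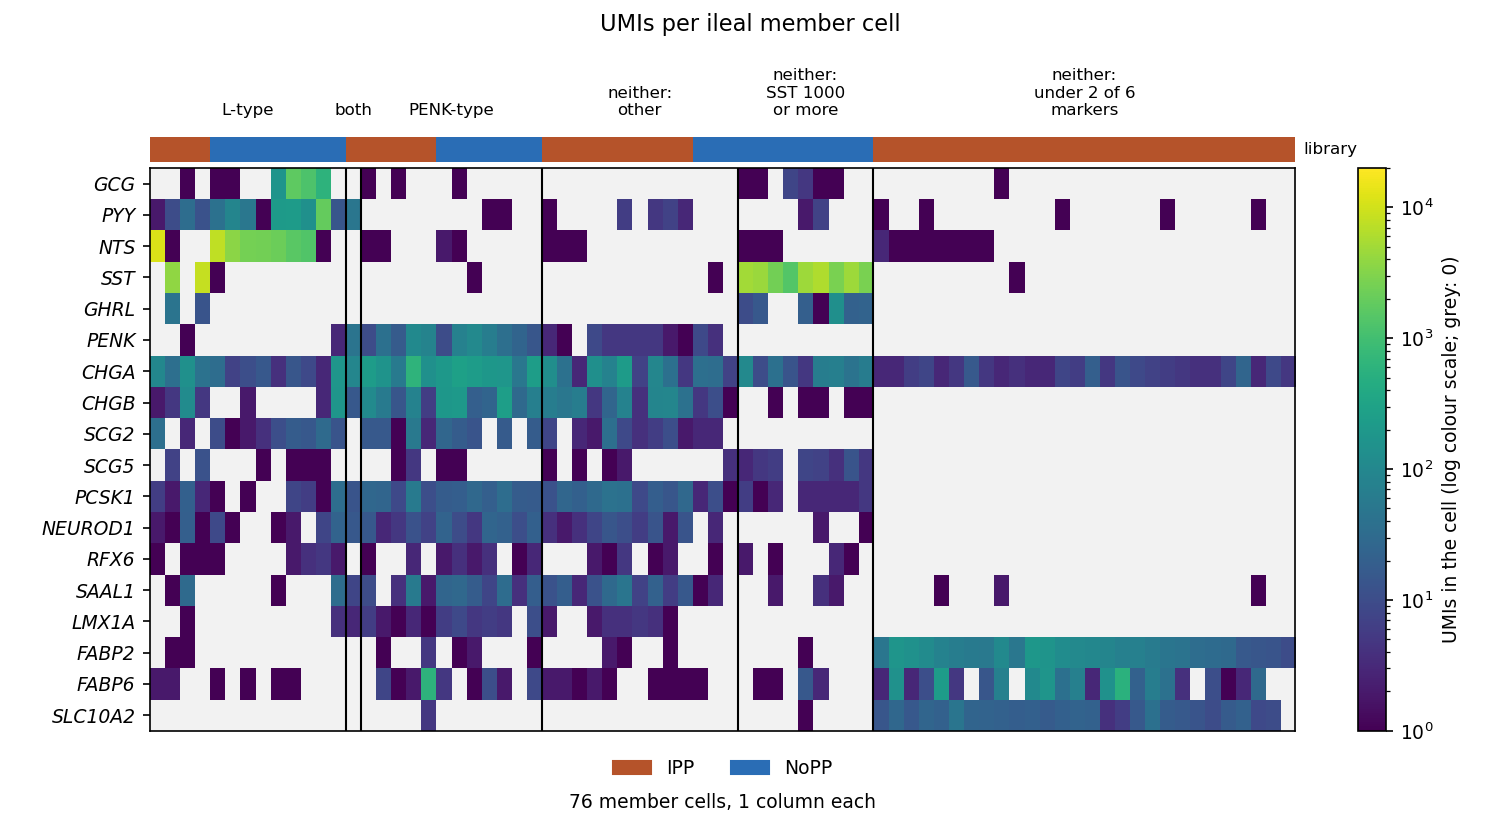
UMIs of 18 genes (rows) in each of the 76 CHGA-gated ileal cells (columns), on a log colour scale with 0 in grey, with columns grouped by class and a bar marking the library. The L-type columns are bright for NTS, PYY or GCG and mostly dim for CHGB, the PENK-type columns are bright for CHGA, CHGB and PCSK1, the SST columns stand apart, and the 28 IPP cells with under 2 of the 6 markers are bright for FABP2 and grey for the 6 markers.

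L-type cells were of several kinds. In 8 of the 13, NTS was at 1000 UMIs or more: 1 IPP cell with 11519 NTS UMIs, 55.3% of its total, and 7 NoPP cells with 1375, 1590, 2195, 2398, 2550, 3536 and 7714. These 7 cells held 1 to 225 PYY UMIs, and 3 of them held GCG at 10 UMIs or more, with 171, 1261 and 1742; the cell with 1742 had more GCG than NTS (1590 UMIs). They had little of the other chromogranin, with 0 to 2 CHGB UMIs in each, and 4 to 35 of CHGA. The cell with the most GCG and PYY together without NTS was in NoPP, with 605 GCG, 1963 PYY and 1 NTS UMI and with 3 CHGA UMIs, the lowest the gate admits. So all 3782 GCG UMIs of the L-type cells but 1 were in NoPP, where 4 cells held at least 10; in IPP no gated cell held more than 1.

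The remaining 4 L-type cells passed with low PYY. In IPP, 2 held 10 and 12 PYY UMIs beside 3908 and 8397 SST UMIs. Another pair, 1 in each library, held 34 and 14 PYY UMIs beside 120 and 178 CHGB UMIs, and 31 and 35 UMIs of SAAL1. SAAL1 was at most 1 UMI in each of the other 11 L-type cells. The L hormones of these 4 cells were thus far below those of the other 9, which held more than 1000 UMIs of NTS or PYY.

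In the six-marker set, 33 of 68 cells were L-type (48.5%, 36.2 to 61.0%), 17 in IPP and 16 in NoPP, while the PENK-type remained at 12 (17.6%). PYY then reached 75282 CPM in IPP and 52910 CPM in NoPP. GCG was 6703 CPM in IPP and 26349 CPM in NoPP, with 8 and 10 cells at 10 UMIs or more. INSL5, a hormone of distal L cells, appeared only in this wider set, at 18 UMIs in 3 IPP cells. The near absence of GCG from IPP among CHGA-gated cells was thus not seen once CHGA was left out of the gate. Free RNA held these hormones too: barcodes under 100 UMIs had 721 CPM of GCG, 1703 of PYY and 993 of NTS in IPP, and 1351, 1220 and 5219 in NoPP, against 6.27 and 11.5 CPM of PENK.

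PENK-type cells were high in CHGA. PENK itself was at 10, 17, 39, 85 and 110 UMIs in the 5 IPP cells and at 10, 14, 24, 37, 66, 79 and 107 in the 7 NoPP cells, at most 1.05% of a cell's total. CHGA ran from 58 to 637 UMIs in IPP (median 162) and from 50 to 273 in NoPP (median 198). CHGB ran from 6 to 113 and from 20 to 257, and PCSK1, the convertase, from 9 to 57 and from 17 to 35. Every PENK-type cell therefore had granule and convertase RNA. GCG and NTS were at most 2 UMIs and PYY at most 1 in each.

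LMX1A, a transcription factor of enterochromaffin cells, was found in 11 of the 12, at up to 6 UMIs in IPP and 11 in NoPP. TPH1, which makes the first step of serotonin synthesis in the gut, has no row in the deposited annotation. SAAL1, next to TPH1 in the RefSeq gene order of the pig assembly Sscrofa11.1, was found in 11 of the 12 PENK-type cells, at 0 to 56 UMIs in IPP and 4 to 33 in NoPP. Whether reads of TPH1 were counted under SAAL1 was not tested.

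The 10 IPP cells among the 13 unclassed others carried the granule genes of the PENK-type. They held 3 to 231 CHGA UMIs (median 60), 4 to 96 of CHGB, 9 to 42 of PCSK1 and 3 to 47 of SAAL1. PENK was at 1 to 9 UMIs in 9 of the 10, and LMX1A was found in 7. Of the 3 in NoPP, 2 held 9 and 4 PENK UMIs, and the other was the GIP cell. The line between PENK-type and unclassed cells is therefore a count limit on a range of PENK values and not a gap.

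**Figure D3:**
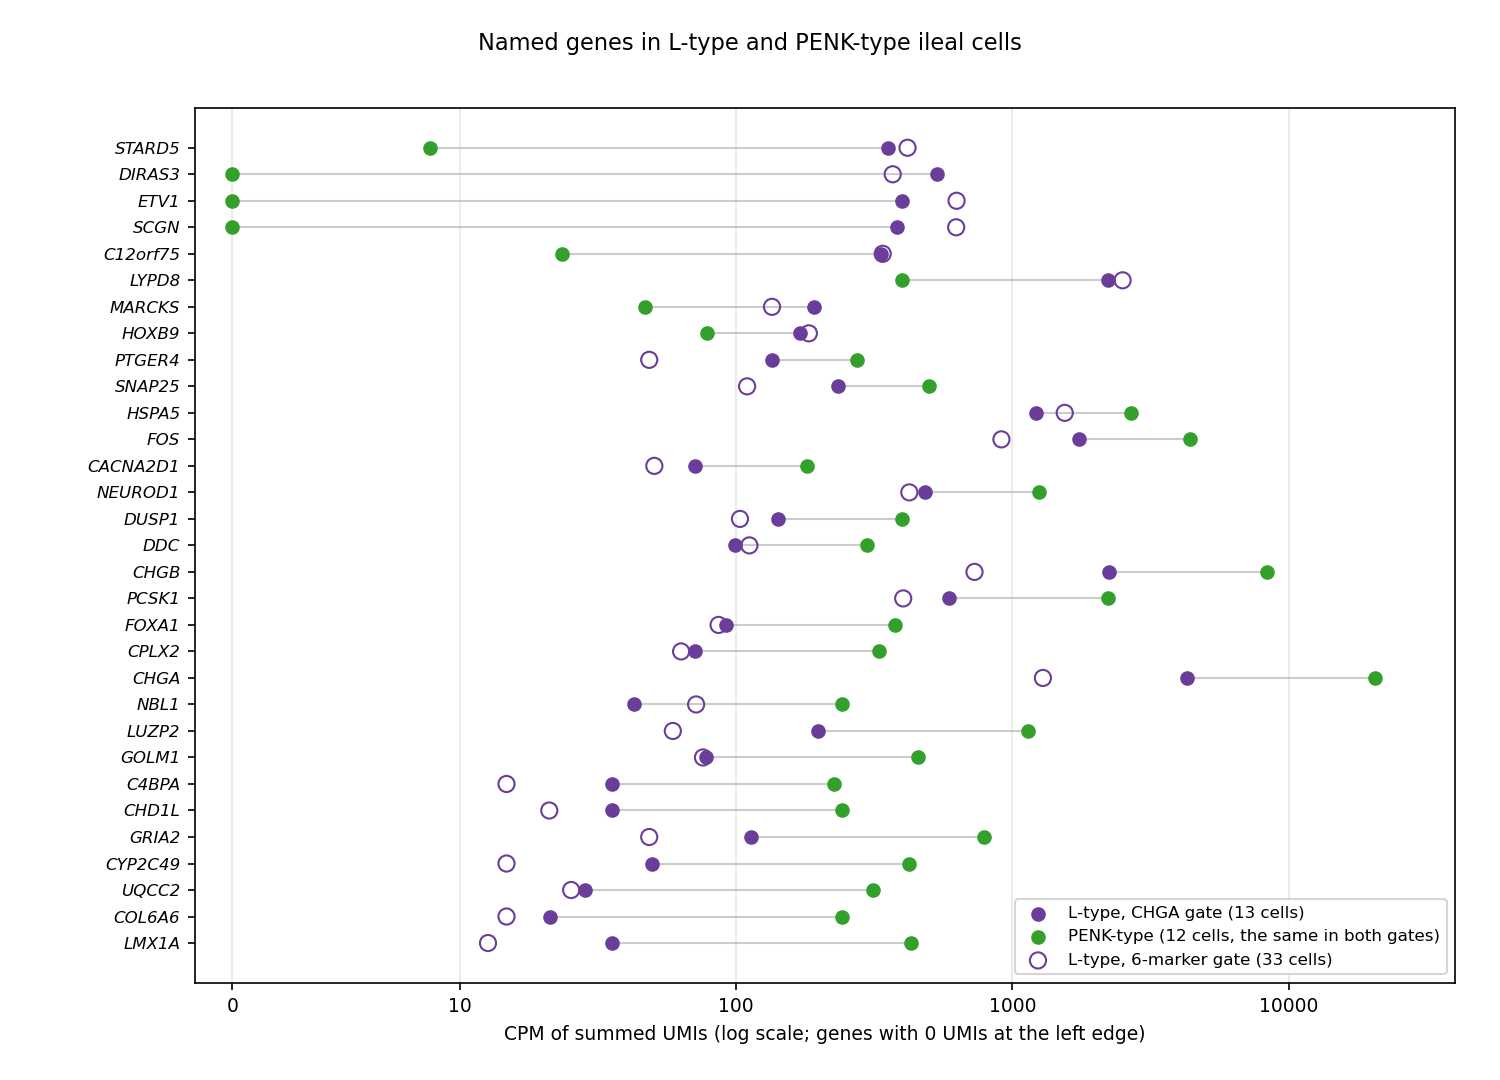
CPM (log scale, 0 at the left edge) of genes described here in the 13 L-type cells of the CHGA gate, the 12 PENK-type cells and the 33 L-type cells of the six-marker set (open circles). ETV1 and SCGN lie at 0 in the PENK-type, and LMX1A, CHGB, PCSK1 and CPLX2 lie further right in the PENK-type than in either L-type set.

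The L-type and PENK-type cells were compared on their summed UMIs over both libraries, since neither library held 10 cells of each class. A gene was called at a ratio of at least 2 with 30 UMIs over both classes, a UMI in at least 5 cells of the higher class and no cell with 50% or more of that class's UMIs. Beside the 4 genes that define the classes, 20 of 1081 genes were called higher in L-type cells (1.85 percent called) and 278 higher in PENK-type cells (25.7 percent called). That split depended on the scale. GCG, PYY, NTS, PENK and SST took 36.7% of the UMIs of L-type cells and 0.477% of the PENK-type, and the median log2 ratio over all genes was -0.58. With totals that left out mitochondrial genes, ribosomal proteins and the 10 highest genes, the median was -0.01 and the calls became 65 and 103. All 20 L-type calls and 103 of the 278 PENK-type calls held on both scales, and the genes described next did so unless said otherwise.

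Among the genes higher in L-type cells, SCGN and ETV1 had no UMI in any PENK-type cell. SCGN, the calcium-binding protein secretagogin, was at 132 CPM in IPP and 619 CPM in NoPP L-type cells and was found in 9 of 13; with a floor of 3 UMIs over the class it was at least 16.3-fold higher. ETV1, a transcription factor, was at 205 and 578 CPM in 8 of 13 cells, at least 16.9-fold higher. DIRAS3, a small GTPase, was at 762 and 316 CPM in 6 cells, at least 22.7-fold higher. SCGN and ETV1 were also found in 8 and 10 of the 11 gated cells with at least 1000 SST UMIs, of which 2 count as L-type.

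STARD5, a lipid-transfer protein, was 45.3-fold higher in L-type cells (355 against 7.83 CPM, interval 7.77 to 1826). LYPD8, a secreted protein known from colonic epithelium, was found in all 13 and was 5.55-fold higher (2214 against 399 CPM, 4.12 to 7.61), with the same direction in IPP (1862 against 319 CPM) and NoPP (2544 against 451 CPM). C12orf75 was 14.2-fold higher (333 against 23.5 CPM) and MARCKS, a substrate of protein kinase C, 4.08-fold (192 against 47.0 CPM). These 4 genes were higher in both libraries.

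A few calls did not hold in each library. HOXB9, a posterior homeobox gene, was 2.18-fold higher in L-type cells (1.00 to 5.10), at 44.0 against 79.7 CPM in IPP and 289 against 77.3 CPM in NoPP. ENSSSCG00000003047, a gene with no symbol in the files, was at 0 against 159 CPM in IPP and 468 against 0 CPM in NoPP. The direction of these 2 is therefore that of NoPP alone. ENSSSCG00000039658, also without a symbol, was higher in both (205 against 39.9 CPM and 330 against 90.2 CPM).

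Genes higher in PENK-type cells included several of granules, processing and release. LMX1A was 12.1-fold higher (430 against 35.5 CPM, interval 4.90 to 38.8). Its 5 L-type UMIs all came from the 2 L-type cells rich in CHGB, 1 in IPP and 4 in NoPP. PCSK1 was 3.77-fold higher (2222 against 589 CPM, 2.95 to 4.88) and CHGB 3.74-fold (8366 against 2235 CPM, 3.30 to 4.26). Most L-type UMIs of both came from the 2 CHGB-rich cells, with 120 and 178 of 315 for CHGB and 21 and 34 of 83 for PCSK1. In the other 11 L-type cells CHGB was at 0 to 5 UMIs and PCSK1 at 0 to 8, so these ratios depend on that pair of cells. CHGA, which the gate used, was at 20503 against 4279 CPM. CPLX2, a complexin that clamps vesicle fusion, was 4.63-fold higher (329 against 71.0 CPM). DDC, which decarboxylates 5-hydroxytryptophan to serotonin, was 2.99-fold higher (297 against 99.3 CPM, 1.59 to 5.98). Of its 14 L-type UMIs, 8 and 2 were in the 2 CHGB-rich cells. SAAL1 was 3.36-fold higher (1620 against 482 CPM, 2.54 to 4.48). In L-type cells most UMIs of SAAL1 came from the same 2 cells.

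Other genes higher in the PENK-type were GRIA2, a glutamate receptor subunit, at 790 against 114 CPM (6.96-fold, 4.09 to 12.6), and FOXA1, a forkhead factor, at 376 against 92.2 CPM (4.07-fold). LUZP2 was at 1135 against 199 CPM, and its L-type UMIs all came from 1 cell. COL6A6 was 11.4-fold, CYP2C49 8.51-fold, CHD1L 6.84-fold, C4BPA 6.40-fold, GOLM1 5.82-fold and NBL1 5.70-fold higher. These 9 genes were higher in the PENK-type in each library. The L-type UMIs of CHD1L also all came from 1 cell. The highest L-type cell held 85.7% of those of CYP2C49, 56.25% of GRIA2, 53.8% of FOXA1 and 50% of NBL1. One IPP PENK-type cell held 612 FABP6 UMIs with 22.4% mitochondrial UMIs, and enterocyte markers summed to 11026 CPM in the PENK-type against 1994 CPM in the L-type. RBP2 and SLC10A2 were at 0 in the L-type, while none of the 10 enterocyte markers was at 0 in the PENK-type. The part of this in the calls was not tested.

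Read by gene list, the tested members divided as follows. Of 3 genes of serotonin synthesis and enterochromaffin cells, all 3 were higher in the PENK-type (DDC, LMX1A, CHGB; median log2 ratio -1.90), on both scales. Of 8 granule and processing genes, 1 was higher in the L-type (SCGN) and 3 in the PENK-type (CHGB, PCSK1 and CHGA, median -0.71). CHGA was used by the gate, so its call is a description only. Of 4 exocytosis genes, 0 and 3 were called (median -1.35). Of 5 endocrine transcription factors, 1 was higher in the L-type (ETV1) and 3 in the PENK-type (median -1.37). Of 10 immediate early and stress genes, 0 and 3 were called (median -0.94), and on the rescaled totals 0 and 0. These medians stand beside -0.58 over all genes.

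Several PENK-type calls passed 2-fold only on the plain totals. NEUROD1 was 2.58-fold higher, and 1.74-fold after rescaling. FOS, an immediate early gene, was 2.53-fold and 1.71-fold, DUSP1 2.81-fold and 1.90-fold, and HSPA5, a chaperone of the endoplasmic reticulum, 2.21-fold and 1.49-fold. SNAP25, a membrane fusion protein, was 2.14-fold and 1.45-fold, CACNA2D1, a calcium channel subunit, 2.54-fold and 1.72-fold, and PTGER4, a prostaglandin receptor, 2.03-fold and 1.37-fold. SCG2 (1029 against 1424 CPM) was not called, and CPE, a carboxypeptidase of hormone processing (1518 against 830 CPM), was called higher in the L-type only on the rescaled totals, at 2.71-fold.

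With the 33 L-type cells of the six-marker set in place of the 13, 100 of 2211 genes were higher in L-type cells (4.52 percent called) and 586 in PENK-type cells (26.5 percent called), and 265 and 133 on the rescaled totals. They took in 16 of the 20 L-type genes, which are 16% of the 100, and 219 of the 278 PENK-type genes, 37.4% of the 586. The PENK-type cells are the same 12 in both comparisons, and the 33 L-type cells include the 13. The shared genes and repeated ratios therefore do not come from separate cells. In the granule and processing list, of 12 tested, 3 were higher in the L-type and 2 in the PENK-type. The median log2 ratio was 0.29 beside -0.62 over all genes. On the rescaled totals 5 and 1 were called, against 2 and 3 rescaled with the CHGA gate. Of 8 endocrine transcription factors, 3 were higher in the L-type and 2 in the PENK-type on either scale (median -0.58). Of 4 genes of serotonin synthesis and enterochromaffin cells, 0 and 3 were called (median -2.47), but only 0 and 1 on the rescaled totals. The 6 markers that chose the set are in these lists but were given no call. CHGB and PCSK1, called higher in the PENK-type with the CHGA gate, therefore could not be called here. CHGB was at 8366 CPM in the PENK-type against 729 in these L-type cells, and PCSK1 at 2222 against 403. The call counts of the 2 gates are therefore not directly comparable. SCGN was at least 26.7-fold higher in L-type cells and ETV1 at least 26.8-fold.

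Genes called higher in L-type cells only in the wider set included 2 further factors of endocrine differentiation with no UMI in the PENK-type, ISL1 (92.7 CPM, at least 3.95-fold) and PAX6 (88.5 CPM, at least 3.77-fold). GPBAR1, the surface receptor for bile acids, was at 73.8 CPM and had no UMI in the PENK-type (at least 3.14-fold). CPE was 2.78-fold higher (2310 against 830 CPM, 2.28 to 3.43), and HOXB8, a posterior homeobox gene, 3.54-fold (194 against 54.8 CPM). LMX1A (12.6 CPM) and SAAL1 (154 CPM) were lower in these L-type cells than in the 13 of the CHGA gate, which are among them. CHGA was at 1290 CPM in these L-type cells against 20503 CPM in the PENK-type.

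The cells rich in SST were a group apart that shared no member with the PENK-type. There were 11, with 1422 to 8397 SST UMIs, 2 in IPP (among the L-type above) and 9 in NoPP (median 4553), and SST took up to 62.1% of a cell's UMIs. They are described against the other 37 gated cells with 2 or more of the 6 markers; 1 of the 11, with 2290 UMIs in all, had none of the 6. GHRL, the ghrelin gene, had 290 UMIs in 9 of the 11 and 0 in the 37, and the D-cell factor HHEX had 18 UMIs in 8 and 0 in the 37. PDX1, a homeobox factor of pancreas and upper gut, had 26 UMIs in 8 and 0 in the 37, and ISL1 53 UMIs in 9 against 8 UMIs in 5.

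Other genes divided the same cells the opposite way. SCG2 had 0 UMIs in the SST-rich cells and 415 in 32 of the 37, KRT20, a keratin of differentiated epithelium, 0 and 802 UMIs in 36, and LMX1A 0 and 85 UMIs in 21. NEUROD1 was at 40.1 against 891 CPM and CHGB at 120 against 5379 CPM. SCG5, which chaperones a convertase, was higher in the SST-rich cells (561 against 58.5 CPM). SCG2, NEUROD1, CHGB and SCG5 are among the 6 markers that chose the 37 cells but not the SST-rich cells. Their levels are therefore given as a description. With the 2 SST-rich cells left out of the L-type, 16 genes were higher in L-type and 236 in PENK-type cells.

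Against the upper intestine, the gated ileal cells carried few of the proximal hormones. CCK, which releases bile and pancreatic enzymes, stood at 71093 CPM among DUOD cells and 24344 among JEJ cells but 0 in IPP and 19.4 CPM in NoPP. MLN, the motilin precursor, was at 31598 and 9662 CPM above and had no UMI in either ileal library, at least 8361-fold lower over the pooled cells. SCT, secretin, was at 10111 and 20069 CPM against 11.2 and 42.7, and GHRL at 32396 and 10665 CPM against 81.5 and 900. GIP was at 68832 and 25829 CPM against 0 in IPP and 2177 CPM in NoPP, all of the latter from the shared barcode. These 5 were the hormones called, 5 of 13 tested, and all 5 were lower in the ileum. In JEJ the highest cell held 98.5% of the MLN UMIs, 92.1% of the GIP UMIs and 68.3% of the CCK UMIs. The JEJ levels of MLN and GIP therefore rest largely on 1 cell each.

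The lower-gut hormones did not follow that order in every library. In the order DUOD, JEJ, IPP, NoPP, NTS was at 1.32, 39957, 16200 and 82926 CPM, and PYY at 574, 18460, 187 and 10697. GCG was at 0, 378, 5.62 and 14745 CPM. PENK was highest in JEJ, at 3610 CPM, with 33.1 CPM for DUOD, 483 for IPP and 1370 for NoPP. SST was at 226654, 44532, 17283 and 133461 CPM. In most of these values 1 or a few cells weigh heavily: the single highest cell gave 11519 of 11535 NTS UMIs in IPP and 4912 of 4935 PYY UMIs in JEJ.

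**Figure D4:**
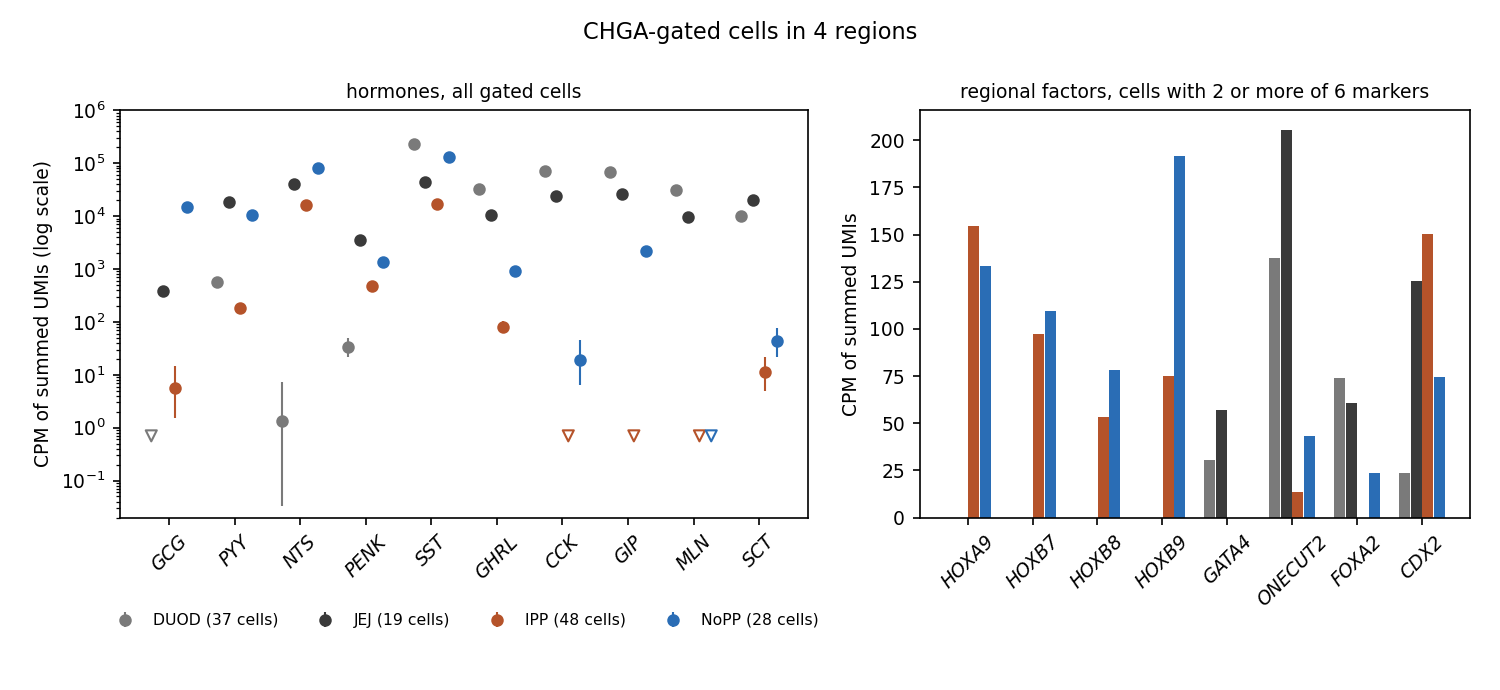
Left, CPM of hormone genes (log scale, points with exact Poisson intervals, open triangles for 0 UMIs) in the gated cells of DUOD (37), JEJ (19), IPP (48) and NoPP (28). Right, CPM of regional factors (bars from 0) in the gated cells with 2 or more of the 6 markers. CCK, MLN and SCT are high in DUOD and JEJ and near or at 0 in the ileum, and HOXA9, HOXB7, HOXB8 and HOXB9 have bars only in IPP and NoPP.

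Across all genes, a call asked that both ileal libraries differ at least 2-fold from both upper libraries. Of 5652 genes, 216 were higher in the ileum (3.82 percent called) and 108 lower (1.91 percent called). For cells with 2 or more of the 6 markers, 164 of 4724 were higher (3.47 percent called) and 69 lower (1.46 percent called). The lists shared 93 higher genes, 43.1% of the 216 and 56.7% of the 164, and 57 lower genes, 52.8% and 82.6%. The makeup of the cells with 2 or more markers differed. PENK-type cells were 12 of 47 in the ileum and 4 of 55 in the upper intestine, and L-type cells 13 and 8. The regions were not compared at equal makeup.

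Posterior homeobox genes separated the regions. In cells with 2 or more markers, HOXA9 was at 155 CPM in IPP and 133 in NoPP, HOXB7 at 97.3 and 110, HOXB8 at 53.1 and 78.3, and HOXB9 at 75.2 and 192. None of the 4 had a UMI in DUOD or JEJ, which makes HOXA9 at least 48.6-fold and HOXB9 at least 46.5-fold higher over the pooled cells. GATA4, a factor of the proximal small intestine, went the other way, with 0 UMIs in the ileal cells and 30.4 and 57.1 CPM in DUOD and JEJ. ONECUT2, another proximal factor, was at 13.3 and 43.1 CPM against 138 and 206. Of 9 regional factors tested, 4 were higher and 2 lower in the ileum (median log2 ratio 0.95 beside 0.18 over all genes).

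Receptors formed a further group. In cells with 2 or more markers, PTGER4 was at 172 CPM in IPP and 196 in NoPP against 38.4 in DUOD and 49.5 in JEJ (4.48-fold, 3.07 to 6.63). SSTR5, a receptor for somatostatin, was at 208 and 188 CPM against 72.8 and 91.4 (2.54-fold, 1.87 to 3.47). NR1H4, the nuclear bile acid receptor FXR, was at 44.2 and 58.7 CPM against 11.9 and 7.61 (4.81-fold, 2.28 to 10.8). Of 4 receptors tested these 3 were called higher. With all gated cells only NR1H4 was called, 1 of 6, and the 28 IPP cells with enterocyte genes are among those. Receptor levels also differed between kinds of ileal cell. PTGER4 was at 274 CPM in the PENK-type, 135 in the L-type and 56.1 in the SST-rich cells, and SSTR5 at 180, 227 and 56.1. The part of cell makeup in these calls was not tested.

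Among other genes called in both sets, SLC13A1, a sulfate carrier, was at 221 and 102 CPM in IPP and NoPP cells with 2 or more markers against 0 in DUOD and 3.81 in JEJ. LUZP2 was at 522 and 540 CPM against 0 and 22.8. STARD5 was at 97.3 and 211 CPM against 6.62 and 3.81, ZFP36L2, which destabilises messenger RNA, at 336 and 952 against 27.8 and 30.5, and CHD1L at 106 and 110 against 6.62 and 3.81. STARD5, LUZP2 and CHD1L are also among the genes that divided L-type from PENK-type cells. FABP6 was at 3417 CPM in IPP and 206 in NoPP over all gated cells and had no UMI in DUOD or JEJ. With 2 or more markers it was not called, since 1 IPP cell held 95.9% of its IPP UMIs.

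Over all gated cells, genes lower in the ileum included TTR, the thyroxine carrier transthyretin, with 0 UMIs in both ileal libraries and 1663 and 838 CPM in DUOD and JEJ. Another was TF, transferrin, with 0 and 7.76 against 287 and 763 CPM. The highest JEJ cell held 96.9% of the TTR UMIs there and 63.2% of the TF UMIs. PCSK1N, an inhibitor of PCSK1, was at 28.1 and 116 CPM against 512 and 419 (88.4 and 117 in ileal cells with 2 or more markers), and FOXA2, a forkhead factor, at 0 and 23.3 against 74.1 and 63.6. All 4 were called in both sets. Of 16 granule and processing genes 1 was higher (CPD, a carboxypeptidase) and 2 lower. No gene was called among 7 of serotonin synthesis and enterochromaffin cells, 13 immediate early and stress genes or 11 genes of nutrient uptake.

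The comparison of IPP with NoPP turned on which cells were counted. With all gated cells, 597 of 3611 genes were higher in IPP (16.5 percent called) and 490 lower (13.6 percent called). With the mean of the cells' own CPM in place of summed counts, 728 were higher and 301 lower, and the median log2 ratio over all genes went from -0.10 to 0.07. With 2 or more of the 6 markers the counts were 107 of 2075 (5.16 percent called) and 96 (4.63 percent called). The shared genes were 30 higher, 5.03% of 597 and 28% of 107, and 70 lower, 14.3% of 490 and 72.9% of 96. Among all gated cells, 6 of 7 genes of nutrient uptake were higher in IPP, such as the glucose carrier SLC5A1 (1083 against 31.1 CPM). In the 28 IPP cells with enterocyte genes SLC5A1 was at 1575 CPM, and in the other 20 at 26.5 CPM. Likewise 8 of 11 granule genes, 6 of 7 exocytosis genes and 6 of 7 endocrine factors were lower in IPP over all gated cells.

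For the 20 IPP and 27 NoPP cells with 2 or more markers, CHGB was at 4165 and 3932 CPM, CHGA at 10721 and 8404, and PENK at 1521 and 1382. None of the 3 was called, and for CHGB the interval of the ratio ran from 0.968 to 1.16. Lower in IPP were SCGN (44.2 against 305 CPM), ETV1 (61.9 against 313), ISL1 (57.5 against 188), HOXB9 (75.2 against 192), SST (54400 against 129089) and GCG (13.3 against 14846). KLB, the coreceptor for the ileal bile acid hormone FGF19, was at 4.42 against 117 CPM. Higher in IPP were SNAP25 (579 against 145 CPM), PAM, which amidates peptide hormones (106 against 27.4), CDX2, an intestinal homeobox factor (150 against 74.4), TFF3, a trefoil peptide of goblet cells (2432 against 724), and REG4 (195 against 35.2).

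The makeup of these cells also differed: L-type or SST-rich cells, in which SCGN, ETV1 and ISL1 were found, numbered 4 of the 20 IPP cells and 17 of the 27 NoPP cells, and the libraries were not compared at equal makeup. In the same 20 and 27 cells, enterocyte markers summed to 7622 CPM in IPP and 3254 CPM in NoPP, with none of 10 at 0. Goblet markers, which include TFF3 and REG4, summed to 2675 and 807 CPM, with MUC2 at 0 in both. Over all 76 gated ileal cells, enterocyte markers summed to 14363 CPM, those of tuft cells to 41.3 CPM, of crypt cells to 43.3 CPM and of B cells to 19.6 CPM. Goblet markers summed to 894 CPM, of which TFF3 made up 771 CPM while MUC2 was at 0, and those of T or innate lymphoid cells to 124 CPM. Markers of BEST4 enterocytes summed to 510 CPM, of which GUCA2B gave 491 CPM. Their part in the differences was not tested.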

How the data were processed

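Droplet single-cell RNA sequencing of pig small intestine was deposited as 4 matrices, 1 per region. The values are UMI counts per gene and barcode made by the authors with Cell Ranger, version 4 per the file headers and 4.0.6 per the submitters' processing notes. The genome build is not given in the sources used here. Library totals ran from 44726845 (NoPP) to 91813234 UMIs (DUOD), and the gated cells had median totals of 13844 (IPP) and 10116 UMIs (NoPP). Gene symbols came from the files for 17733 genes and from a table of gene IDs for 977, and 7170 had none.

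Counts were filtered, gated and classed as the results state, summed per library or class and scaled to CPM with Python 3.11.15, numpy 2.4.6, scipy 1.17.1 and pandas 2.3.3. Since 3′ UMIs are not scaled by length, levels were compared only within a gene. Ratios have exact conditional Poisson intervals and shares exact Clopper-Pearson intervals, and a class at 0 was set to a floor of 3 UMIs over the class. With 1 sample per region no test was possible. Doublets were scored with Scrublet in scanpy 1.11.5, and its automatic threshold marked 21 of 3273 IPP cells and 1 of 2084 NoPP cells (0.0480%), which in NoPP is too few to have worked. No cell was removed in the main analysis, and removing the highest scores was an alternative.

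The ratio and call steps were tested on simulated data. The named genes were the markers, up to 4 called members per list and direction or members of at least 500 CPM, and the 10 (L-type against PENK-type) or 5 (ileal against upper) largest called ratios per direction. SAAL1, INSL5, the genes of the SST-rich cells, those called only in the six-marker set and those of the IPP against NoPP comparison outside the lists were also named after their values were seen. The cells, gene lists and rules were chosen with earlier results of these data known. Alternatives covered the filters, gate, class limits, scaling, minimum counts, shared barcodes and doublets. Results for some items are not reported here.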

Additional observations from a re-analysis of the deposited data

Results flagged for a closer look

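In IPP, 13 cells without PTPRC and with under 3 CHGA UMIs held at least 30 UMIs of GCG, PYY and NTS. They lie outside the CHGA gate and so outside its comparisons, and were singled out because the gate leaves these hormone-rich cells unanalysed. In NoPP the same rule found 8 such cells. Of the 21 cells, 19 also carried 2 or more of the 6 endocrine markers.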

How the results depend on the processing

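No paired analysis was possible because each region is 1 matrix with no map from cells to animals. Of the 1025 values of named genes under the alternatives, 923 stayed within their counting interval (L-type against PENK-type) or past 2-fold (ileal against upper), 102 did not, and none reversed. Part of the 923 could not change. Minimum counts do not enter a ratio, and keeping the barcodes shared with DUOD added 0 gated cells. Asking for 2 or more of the 6 markers left the L-type and PENK-type cells the same. The tally therefore overstates how stable the values are. The limits are these: 1 sample per region, classes of 12 and 13 cells, a gate that depends on 1 gene, and hormone totals set by a few cells. The cause of each change below was not tested.

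With a mitochondrial limit of 10%, there were 39 gated cells, 33.3% of them L-type, 134 genes higher and 54 lower in the ileum, and 101 higher and 78 lower in IPP. A CHGA limit of 1 gave 118 cells, 66 genes higher in L-type cells and 767 lower in IPP. A limit of 10 gave 43 cells, 27.9% PENK-type, 11 genes higher in L-type cells, 131 higher in the ileum, and 145 higher and 143 lower in IPP. A class limit of 3 UMIs gave 33 genes higher in L-type cells, and dropping the top cell of each gene gave 11. Totals without mitochondrial, ribosomal and the 10 highest genes gave 65 genes for L-type and 103 for PENK-type cells. The mean of the cells' CPM gave 301 genes lower in IPP. A minimum of 100 UMIs gave 4 and 60 genes for the types, 72 and 36 for the ileum and 225 and 93 for IPP. No minimum gave 326 and 1725 for the types, 168 lower in the ileum, and 1112 and 1893 for IPP.

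Added after seeing the data, gated cells with 2 or more of 6 markers numbered 47, with 27.7% L-type, 69 genes lower in the ileum, and 107 higher and 96 lower in IPP. The six-marker set gave 48.5% L-type, 100 and 586 genes for the types, and 55 higher and 182 lower in IPP. Without the GIP cell shared with DUOD, each share stayed within its interval and each count within 1.5 times its value.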

Other observations

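Cells with PTPRC and at least 3 CHGA UMIs, which the gate leaves out, numbered 4 in IPP and 8 in NoPP, and 2 and 7 of them had 2 or more of the 6 endocrine markers. TRPM5, a cation channel of tuft cells, had 25 UMIs among the SST-rich cells, all in 1 NoPP cell. SLC6A4, the serotonin uptake carrier, had 17 UMIs in the gated IPP cells, all in the 28 with enterocyte genes, and 0 in NoPP. UCN3, a peptide of the corticotropin-releasing family, had 23 UMIs in the gated ileal cells, 11 of them in PENK-type cells.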
